A study of Mus musculus with 12 samples.

Results

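The genes described here are 9 transcription factors of the epidermal lineage: Trp63, Grhl1, Grhl2, Grhl3, Ovol1, Klf4, Klf5, Gata3 and Tfap2a. They were chosen by gene name, with earlier results of these data known, among them the fall of Grhl3 on wounding. The p-values of Grhl3 on wounding are therefore not those of a gene picked without sight of the data. All 9 were found among the 54532 genes listed and among the 13571 with enough counts to be tested. Their messenger RNA was followed in 12 libraries made from mouse keratinocytes in culture, the cells that form the layers of the epidermis. All groups had the genotype given as WT DP-BirA(1-584), that is, cells carrying residues 1-584 of desmoplakin, a desmosome protein, joined to the biotin ligase BirA. In all groups, confluent cells received calcium, which induces differentiation, and 2 µg/mL doxycycline, which switched the fusion protein on, and were later pulsed with biotin for 16 h. The cells were scratch wounded or left unwounded before the pulse. The translating part of each lysate was taken from a sucrose gradient and incubated with neutravidin resin, which captures biotin. RNA on the resin is the cortical fraction, and RNA of the depleted remainder is the total fraction. Each fraction was thus sequenced from unwounded and from wounded cells, which gave 4 groups of 3 libraries each. Cells without the fusion protein were not analysed here, and RNA that binds the resin without biotin is therefore part of the cortical values.

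Trp63 encodes p63, which keratinocytes need to take on and keep their identity. The grainyhead-like factors encoded by Grhl1, Grhl2 and Grhl3 bind the same DNA motif and act in epithelial barrier formation, junctions and wound closure, Grhl3 being known for its role in the epidermal barrier. Klf4 is linked to terminal differentiation and barrier formation, Klf5 to proliferating basal cells, and Ovol1 to the exit of keratinocytes from growth. Gata3 acts in hair follicle lineages and barrier lipids, and Tfap2a encodes AP-2 alpha, a factor active at many keratinocyte genes.

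Total counts per library ran from 8980013 to 23457548. Wounded total replicate 1 stood apart, since it had counts for 13117 genes and each of the remaining 11 libraries for 14393 to 16867. Among 1005 genes whose expected count in it was 10 to 20, 32.7% had none, while the share was 13.1% and 14.8% for replicates 2 and 3 of that group. The fitted changes of the 9 factors in contrasts that use this library are therefore given with and without it. All 9 keratinocyte markers were above 1 FPKM on average (fragments scaled by exon length and library size). The 8 fibroblast markers summed to at most 6.47 CPM (counts scaled by library size and TMM, a factor that evens out RNA composition between libraries) in any library, with Dcn and Twist2 at 0. The 4 endothelial markers summed to at most 1.87 CPM, with Cdh5 at 0, and the 7 melanocyte markers to at most 10.4 CPM, with Tyr and Tyrp1 at 0. The 6 immune markers summed to 20.9 to 24.9 CPM in the unwounded total, 17.8 to 20.9 in the unwounded cortical, 43.2 to 58.7 in the wounded total and 32.9 to 38.6 in the wounded cortical libraries. Nearly all of that sum was Cd68, while Lyz2, Cd207 and Itgam were at 0 in every library. The keratinocyte marker sum also moved with wounding, from 10241 to 11421 CPM in the unwounded total libraries to 17223 to 19871 in the wounded total libraries. The part of these marker sums in the results below was not tested.

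Per kilobase of exon, the member levels in the unwounded total group ran from 18.3 ± 1.79 FPKM for Klf4 (SD, n = 3 here and throughout) to 0.229 ± 0.103 for Gata3. Klf5 stood at 10.6 ± 1.17, Trp63 at 9.95 ± 0.325, Ovol1 at 9.62 ± 1.23 and Tfap2a at 9.11 ± 0.862 FPKM, and each of these neighbours in the order overlapped with the next. Grhl1 at 4.91 ± 0.414, Grhl3 at 3.76 ± 0.679 and Grhl2 at 2.60 ± 0.382 FPKM followed without overlap between neighbours. Among the 1469 genes with a transcription factor family in the deposited table, Klf4 ranked 65, Grhl3 266 and Gata3 762 by this level. In the unwounded cortical group Klf5 came first at 21.5 ± 1.36 FPKM, ahead of Klf4 at 17.5 ± 1.77, and the ranges of the 2 genes did not overlap. In the wounded total group the order was Klf5 (14.9 ± 4.43), Klf4 (12.7 ± 7.0), Trp63 (11.2 ± 1.37), Tfap2a, Ovol1, Grhl1, Grhl2, Grhl3 and Gata3 by mean FPKM. There the neighbours among Klf5, Klf4 and Trp63 overlapped, as did Ovol1 with Grhl1 and Grhl2 with Grhl3. In the wounded cortical group Klf5 (16.7 ± 3.10 FPKM), Klf4 (13.3 ± 1.89) and Trp63 (12.7 ± 0.863) again led with overlapping neighbours, and Grhl3 (2.78 ± 0.811) overlapped with Grhl2 (2.65 ± 0.928). By rank among the 1469 factor genes, Grhl3 stood at 207 in the unwounded cortical, 446 in the wounded total and 338 in the wounded cortical group.

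**Figure D1:**
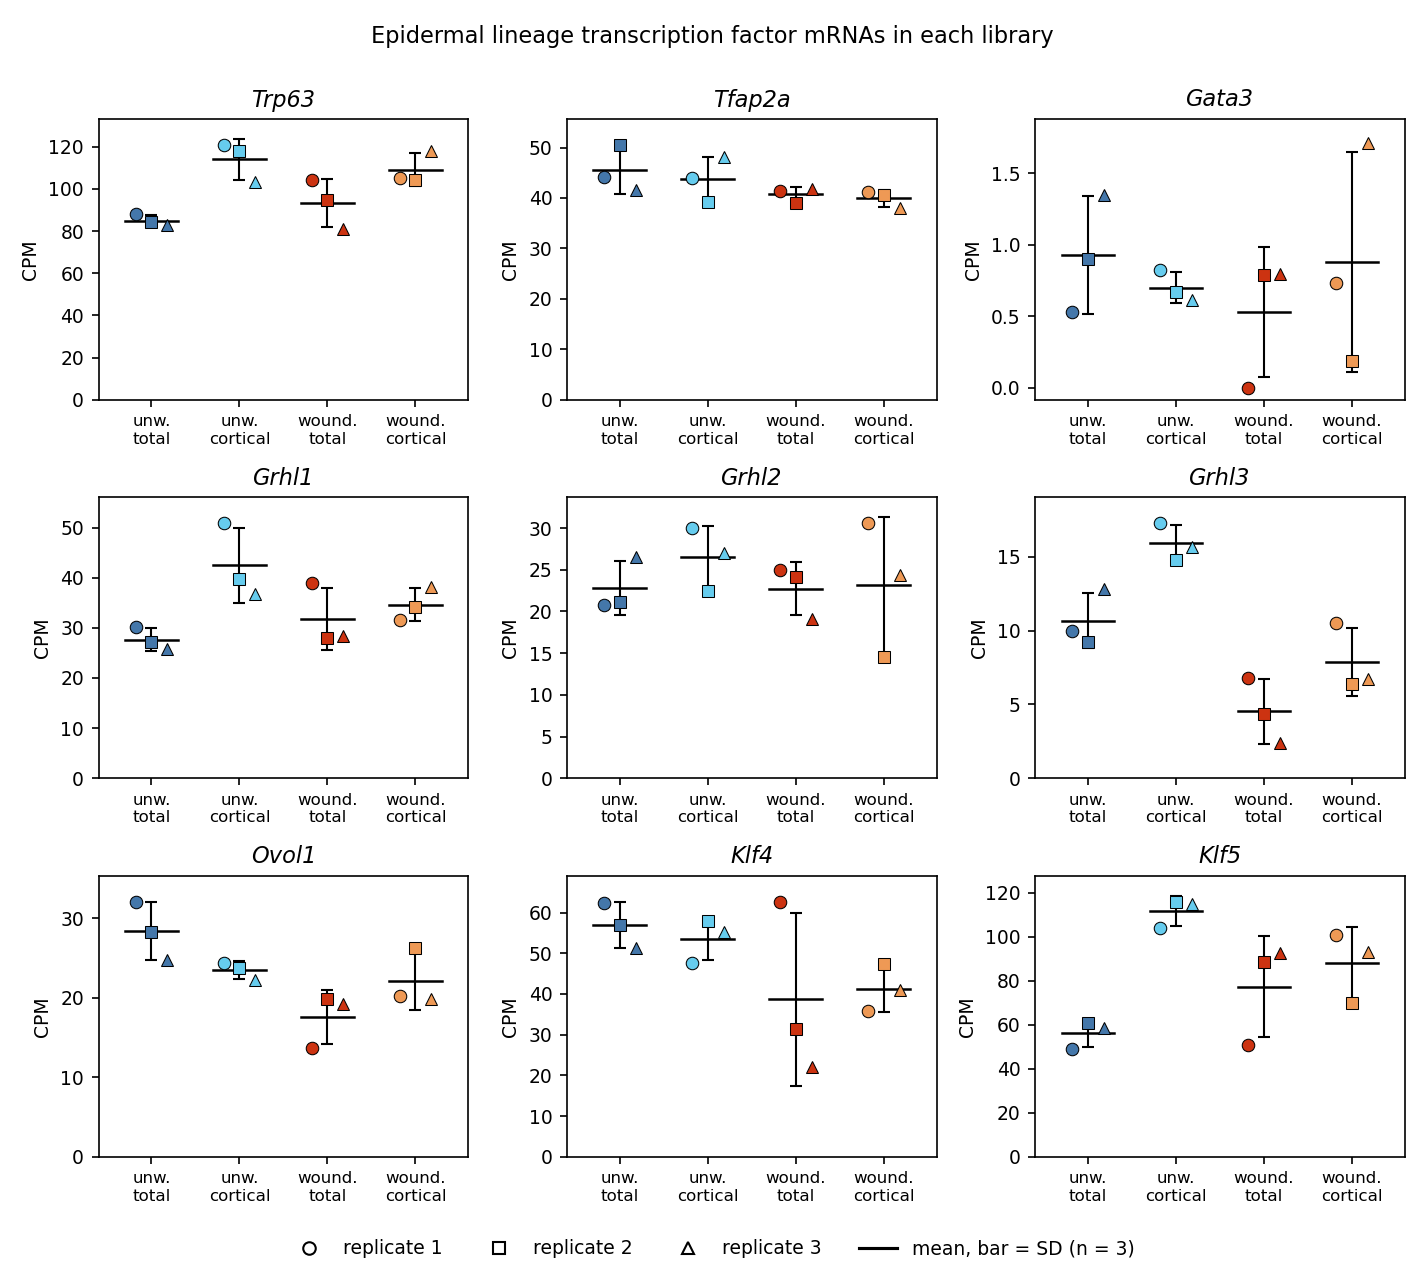
Levels of the 9 factors in each library, as CPM after TMM scaling on linear axes that reach 0, with 3 points per group, a line at the group mean and bars of 1 SD. For Grhl3 the wounded total points lie between 2.39 and 6.82 CPM and the unwounded total points between 9.26 and 12.8 CPM.

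The first question was how wounding changed the factors in the total fraction. Grhl3 and Ovol1 fell, to 0.426 and 0.619 times their unwounded level, and the other 7 did not pass the test. Thus 2 of 9 factors were called, both lower, where 15.6% of all 13571 genes tested were called in either direction (1139 higher, 977 lower). A gene is called when its adjusted p in edgeR's quasi-likelihood test, with the Benjamini-Hochberg method over all genes tested, is under 0.05. The median log2 fold change of the 9 was -0.16, beside -0.03 for all genes. Of the 838 tested genes with a transcription factor family, 121 (14.4%) were called, 63 higher and 58 lower. In bulk translating RNA, fewer cells of a type, less RNA per cell and less of it in translation cannot be told apart. This holds for each result below.

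Grhl3 (ENSMUSG00000037188) lies at chr4:135541888-135573630 on the minus strand of mm10 (GRCm38) and has 2789 bases of merged exons. Its promoter is shown because Grhl3 changed most among the factors that were called, and that of Klf4 because its level followed Grhl3 most closely among the members. Both are the 250 bases before the start of transcription from RefSeq (GRCm38.p6), read 5′ to 3′ on the minus strand, Grhl3 from chr4:135573633-135573882 and Klf4 from chr4:55532476-55532725. Capitals mark CACCC, the core of the motif bound by Kruppel-like factors, searched on both strands.
Grhl3: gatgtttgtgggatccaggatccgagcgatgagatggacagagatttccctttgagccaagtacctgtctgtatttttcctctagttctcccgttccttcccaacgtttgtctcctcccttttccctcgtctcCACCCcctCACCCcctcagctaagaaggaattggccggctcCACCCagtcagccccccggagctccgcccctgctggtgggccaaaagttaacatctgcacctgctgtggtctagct
Klf4: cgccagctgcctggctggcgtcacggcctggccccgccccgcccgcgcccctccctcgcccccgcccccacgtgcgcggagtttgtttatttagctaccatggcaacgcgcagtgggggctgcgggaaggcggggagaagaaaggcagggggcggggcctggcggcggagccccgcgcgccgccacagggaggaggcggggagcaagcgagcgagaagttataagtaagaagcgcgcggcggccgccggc
The Grhl3 stretch holds 3 copies, which begin 117, 109 and 76 bases before the start, and the Klf4 stretch holds 0. This motif stood in 52.0% of the 32851 RefSeq promoter stretches of this length and in 4 of the 7 found for members. Those 7 belong to 5 of the 9 genes. The grainyhead-like motif AACCGGTT was in 0.116% of all stretches and in 0 of the 7, AGATAA, the motif of GATA factors, in 9.99% and 0, TGAGTCA (AP-1) in 4.46% and 0, and GCCNNNGGC (AP-2) in 13.7% and 3. All motifs were searched on both strands, and matches of the Kruppel-like and AP-2 motifs may overlap. A match is only a run of letters in the window.

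In the 3 unwounded total libraries, replicates 1 to 3, Grhl3 stood at 9.96, 9.26 and 12.8 CPM. In the wounded total libraries it stood at 6.82, 4.38 and 2.39 CPM. All 3 wounded values lay under the lowest unwounded one. How many of all genes had groups without overlap was not counted, so a lack of overlap is only a description, here and below. With 3 against 3 libraries such a split has p = 0.1 in an exact two-sided permutation test. The group means were 10.7 ± 1.87 and 4.53 ± 2.22 CPM, a log2 fold change of -1.23 (SE 0.31, adjusted p = 0.0133, edgeR quasi-likelihood test). These levels rest on 164 to 227 counts per library without a wound and 39 to 115 with one. For the library with 39 counts, the exact Clopper-Pearson 95% interval was 1.41 to 2.72 CPM before TMM scaling, which covers counting error only. Without wounded total replicate 1 the log2 fold change of Grhl3 was -1.65 (adjusted p = 1.75e-04). The call was lost without unwounded total replicate 3 (-1.09, adjusted p = 0.0571), without wounded total replicate 3 (-0.93, adjusted p = 0.0505) and when the model held just the 2 total groups (-1.22, adjusted p = 0.0687).

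Ovol1 (ENSMUSG00000024922, chr19:5549137-5560575, minus strand) encodes a zinc finger repressor. It stood at 32.1, 28.3 and 24.8 CPM in the unwounded total libraries. In the wounded total libraries it stood at 13.7, 19.9 and 19.2 CPM. The groups did not overlap, and wounded total replicate 1 was the lowest of the 6. Means of 28.4 ± 3.66 and 17.6 ± 3.40 CPM gave a log2 fold change of -0.69 (SE 0.17, adjusted p = 0.0117). Without wounded total replicate 1 it was -0.54 (adjusted p = 0.0169), and without unwounded total replicate 1 the call was lost (-0.60, adjusted p = 0.0717).

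The calls of the 2 Kruppel-like factors depended on 1 library, and also on the filter and the weighting of libraries. Klf4 (ENSMUSG00000003032, chr4:55527143-55532466, minus strand) stood at 62.4, 57.0 and 51.2 CPM in the unwounded total libraries and at 62.7, 31.3 and 22 CPM in the wounded ones. Wounded total replicate 1 was thus the highest of the 6 and the other 2 wounded libraries were the lowest. The log2 fold change of Klf4 was -0.56 (SE 0.25, adjusted p = 0.151) with that library and -1.09 (adjusted p = 1.40e-05) without it. Klf5 (ENSMUSG00000005148, chr14:99298691-99315036, plus strand) stood at 48.9, 61.0 and 58.6 CPM unwounded and 50.8, 88.4 and 92.4 CPM wounded. Here wounded total replicate 1 lay among the unwounded libraries and the other 2 above them. The log2 fold change of Klf5 was 0.46 (SE 0.18, adjusted p = 0.104) with that library and 0.69 (adjusted p = 2.94e-04) without it. With all 12 libraries, both were called with no filter on low counts (Klf4 -0.56, adjusted p = 0.00167, and Klf5 0.45, adjusted p = 0.00642). Voom with library weights also called both (Klf4 -1.01, adjusted p = 3.96e-06, and Klf5 0.74, adjusted p = 2.17e-05). Of all genes, voom called 5206 in this contrast and the main fit 2116. The number called without the filter is not given. Without wounded total replicate 1, 4 of the 9 factors were called by edgeR, beside 24.9% of the 14073 genes then tested.

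The remaining 5 factors were not called in this contrast. Trp63 (ENSMUSG00000022510, chr16:25683763-25892102, plus strand) had means of 85.0 ± 2.71 and 93.4 ± 11.6 CPM and a log2 fold change of 0.14 (SE 0.11, adjusted p = 0.459). Gene counts do not separate the isoforms of Trp63. Grhl1 (ENSMUSG00000020656, chr12:24572283-24617391, plus strand) had means of 27.7 ± 2.33 and 31.7 ± 6.23 CPM and a log2 fold change of 0.20 (SE 0.16, adjusted p = 0.459). Tfap2a (ENSMUSG00000021359, chr13:40715302-40738376, minus strand) had means of 45.5 ± 4.63 and 40.7 ± 1.48 CPM and a log2 fold change of -0.16 (SE 0.12, adjusted p = 0.401). For each of these genes the unwounded and wounded libraries overlapped. With wounded total replicate 1 left out, the log2 fold changes were 0.05 for Trp63, 0.02 for Grhl1 and -0.17 for Tfap2a, with adjusted p of 0.794, 0.940 and 0.378.

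Grhl2 (ENSMUSG00000022286, chr15:37233036-37363569, plus strand) had a mean of 22.8 CPM in both groups (SD 3.24 and 3.19), and its log2 fold change was 0.00 (SE 0.22, adjusted p = 0.997), or -0.07 (adjusted p = 0.864) without wounded total replicate 1. The libraries were not directional and an antisense gene, Gm16136, overlaps Grhl2 with 667 to 1695 counts, beside 231 to 767 for Grhl2. Reads of the 2 genes cannot be told apart by strand, so the Grhl2 level is uncertain. Gata3 (ENSMUSG00000015619, chr2:9857078-9890034, minus strand) had only 0 to 35 counts per library. It stood at 0.526, 0.903 and 1.35 CPM in the unwounded total libraries, and at 0 counts, 0.786 and 0.797 CPM in the wounded total libraries. A count of 0 there allows up to 0.188 CPM before TMM scaling, taking 3 counts as the limit for counting error only. The log2 fold change of Gata3 was -0.80 (SE 1.08, adjusted p = 0.686), and -0.22 (SE 0.99, adjusted p = 0.910) without wounded total replicate 1. With errors of this size, a difference of the size seen for Grhl3 was not detectable in Gata3 at this depth.

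**Figure D2:**
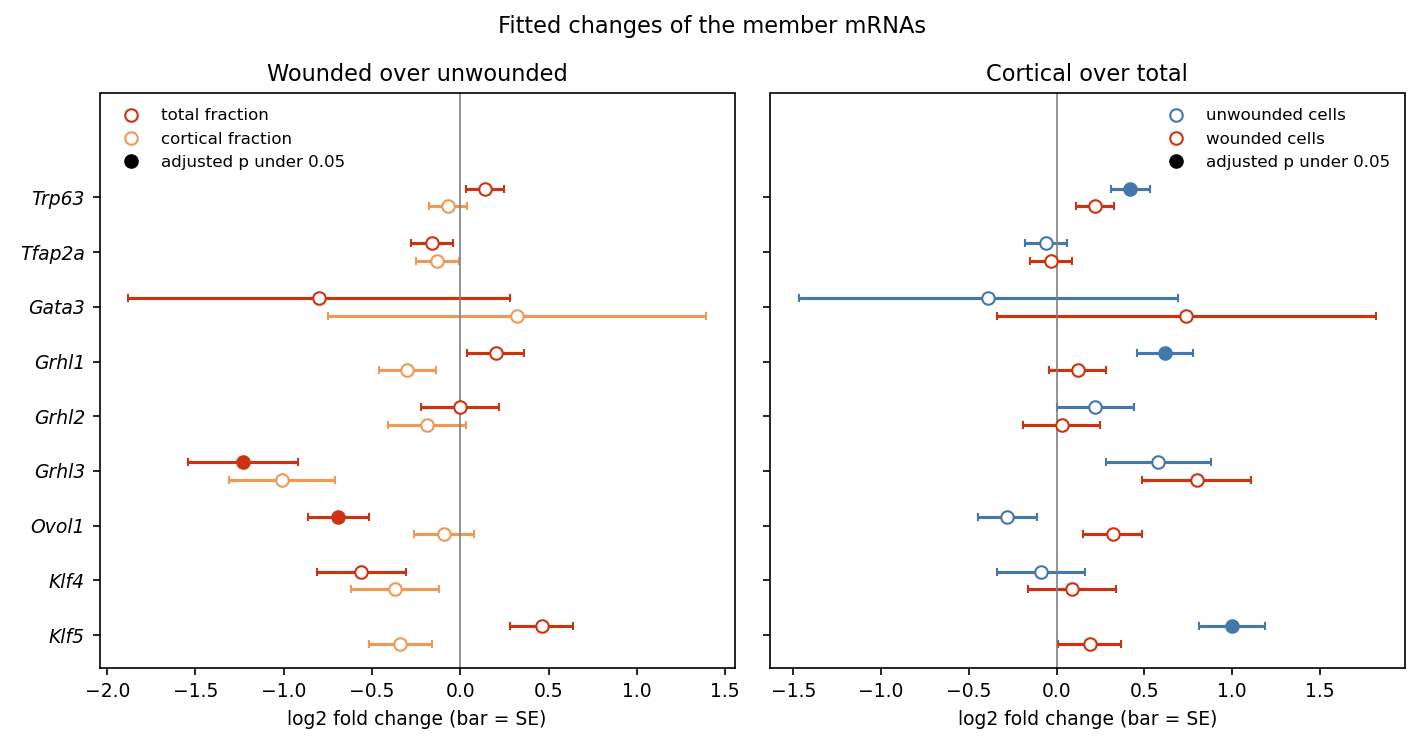
Log2 fold change of each factor in the 4 contrasts between groups, with bars of 1 SE, filled where the gene was called. Filled points are Grhl3 and Ovol1 for wounding in the total fraction and Klf5, Grhl1 and Trp63 for cortical against total in unwounded cells.

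The same question was asked of the cortical fraction. There Grhl3 again had the lowest fitted change of the 9 on wounding, but none of the factors was called. Its libraries stood at 17.3, 14.8 and 15.7 CPM unwounded and at 10.5, 6.42 and 6.71 CPM wounded. All 3 wounded libraries lay below all 3 unwounded ones. Means of 15.9 ± 1.26 and 7.88 ± 2.28 CPM gave a log2 fold change of -1.01 (SE 0.30, unadjusted p = 0.00389, adjusted p = 0.0850) in the edgeR quasi-likelihood test. For these 9 factors edgeR called 0, beside 2.48% of all genes. At an unadjusted p under 0.05 there was 1, beside 2341 of the 13571 genes tested. DESeq2 called 1 (Grhl3), beside 736 genes. Without wounded total replicate 1, a library of neither group that enters the shared estimate of spread, the value for Grhl3 was -1.01 (adjusted p = 0.00895), beside 9.07% of all genes called. It was also called without wounded total replicate 3 (adjusted p = 0.0342) and when the fit held only the 2 cortical groups (-1.04, adjusted p = 0.00579). The fit of the 2 cortical groups called 1423 genes.

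Klf4 and Klf5 also had no overlap between unwounded and wounded cortical libraries, both with the wounded ones lower. The share of all genes without such overlap was not counted. Klf4 stood at 47.7, 57.9 and 55.1 CPM unwounded and 35.7, 47.3 and 41.0 CPM wounded, with a log2 fold change of -0.37 (SE 0.25, adjusted p = 0.491). Klf5 stood at 104, 116 and 115 CPM unwounded and 101, 69.7 and 93.1 CPM wounded, with a log2 fold change of -0.34 (SE 0.18, adjusted p = 0.355). Neither passed the test. When the fit held only the cortical groups, Klf4 (-0.40, adjusted p = 0.0371) and Klf5 (-0.37, adjusted p = 0.0242) were called. Of all genes, that fit called 1423 and the main fit 337. Ovol1, which fell in the total fraction, had 23.4 ± 1.16 CPM unwounded and 22.1 ± 3.56 CPM wounded in the cortical fraction, a log2 fold change of -0.09 (SE 0.17, adjusted p = 0.848). The fitted values of Trp63, Grhl1, Grhl2 and Tfap2a ran from -0.30 to -0.07, and that of Gata3 was 0.32 with an SE of 1.07. The median of the 9 was -0.19, beside 0.02 for all genes.

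The next comparison asked which factors' RNA was enriched in the cortical over the total fraction of unwounded cells. Klf5, Grhl1 and Trp63 were higher in the cortical fraction, by 1.99, 1.54 and 1.34 times. These 3 of the 9 factors were called, beside 14.2% of all genes tested and 104 of 838 (12.4%) of the genes with a transcription factor family. Klf5 stood at 48.9, 61.0 and 58.6 CPM in the total and 104, 116 and 115 CPM in the cortical libraries, with no overlap. Its log2 difference was 1.00 (SE 0.19, adjusted p = 0.00205), and it was called under all 25 alternative settings tried, with values of 0.90 to 1.19. Grhl1 stood at 30.2, 27.1 and 25.7 CPM in the total and 50.9, 39.7 and 36.8 CPM in the cortical libraries, again with no overlap. Its log2 difference was 0.62 (SE 0.16, adjusted p = 0.0140). The Grhl1 call was lost without unwounded total replicate 2 (adjusted p = 0.0604) or 3 (0.0543), or unwounded cortical replicate 1 (0.0995).

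Trp63 stood at 88.0, 84.2 and 82.7 CPM in the unwounded total and 121, 118 and 103 CPM in the unwounded cortical libraries. Every cortical library was above every total library. Its log2 difference was 0.42 (SE 0.11, adjusted p = 0.0152). Trp63 has 8391 bases of merged exons, and when a trend on gene length was removed from each library its difference was 0.23 (adjusted p = 0.189). The Trp63 call was also lost without unwounded total replicate 2 (adjusted p = 0.0588), unwounded cortical replicate 1 (0.0765) or 2 (0.0654). Over the 12 libraries the log2 CPM of Trp63 and Grhl1 had a Pearson correlation of 0.884, the highest of any pair of members, over libraries that share the 4 group differences and depth.

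Grhl3 was higher in every unwounded cortical than in every unwounded total library. It was not called, with a log2 difference of 0.58 (SE 0.30, adjusted p = 0.233). When the model held just the 2 unwounded groups it was 0.59 (adjusted p = 0.0281), beside 3014 genes called. Ovol1 was lower in every unwounded cortical library, 24.4, 23.7 and 22.2 CPM, than in every unwounded total library, with a log2 difference of -0.28 (SE 0.17, adjusted p = 0.341). Klf4 (-0.09, SE 0.25), Tfap2a (-0.06, SE 0.12) and Grhl2 (0.22, SE 0.22) had overlapping groups. Scaling by library size alone turned Klf4 to 0.10 and Tfap2a to 0.13. Gata3 had a log2 difference of -0.39 with an SE of 1.08.

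In wounded cells, 0 of the 9 factors were called between the cortical and total fractions, beside 15.7% of all genes. In the edgeR quasi-likelihood test 1 factor had an unadjusted p under 0.05, beside 3944 of the 13571 genes tested. DESeq2 called 0 factors, and its number of all genes called there is not given. The factor with the unadjusted p under 0.05 was Grhl3. It stood at 6.82, 4.38 and 2.39 CPM in the total and 10.5, 6.42 and 6.71 CPM in the cortical libraries. Its lowest cortical library lay under its highest total library, which was wounded total replicate 1. The log2 difference was 0.80 (SE 0.31, unadjusted p = 0.0198, adjusted p = 0.0931), and without that library it was 1.22 (adjusted p = 0.00306). Klf4 had a difference of 0.09 (SE 0.25, adjusted p = 0.859), which was 0.62 (adjusted p = 0.00397) without wounded total replicate 1. Klf5, the factor with the largest cortical difference in unwounded cells, had 77.2 ± 22.9 CPM in the total and 88.1 ± 16.5 CPM in the cortical fraction after wounding. Its log2 difference was 0.19 (SE 0.18, adjusted p = 0.544) and -0.04 (adjusted p = 0.886) without wounded total replicate 1. Trp63 differed by 0.22 (SE 0.11, adjusted p = 0.198), and by 0.30 (adjusted p = 0.0379) without that library. In all, 3 factors were called without it, beside 24.7% of all genes, and 3 (Trp63, Klf5 and Ovol1) when libraries were scaled by size alone. The number of all genes called with that scaling is not given, so no excess is read from those calls. The other values ranged from -0.03 for Tfap2a to 0.74 (SE 1.08) for Gata3, with Grhl2 at 0.03, Grhl1 at 0.12 and Ovol1 at 0.32. With wounded total replicate 1 left out these were -0.02 for Tfap2a, 0.16 (SE 0.98) for Gata3, 0.11 for Grhl2, 0.29 for Grhl1 and 0.17 for Ovol1, and none of these 5 was called.

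Whether the cortical-to-total difference itself changed with wounding was tested as an interaction. No factor passed, 0 of 9, beside 0.125% of all genes called. In the edgeR quasi-likelihood test 3 had an unadjusted p under 0.05 (Klf5, Ovol1 and Grhl1), beside 1228 of the 13571 genes tested. DESeq2 called 0 factors, beside 72 genes. Klf5 had the smallest p, with a change of -0.80 in the log2 cortical-to-total ratio (SE 0.26, unadjusted p = 0.00668, adjusted p = 0.357). With wounded total replicate 1 left out it was -1.03 (adjusted p = 0.00185), beside 2.93% of all genes called. With no filter on low counts the Klf5 change was -0.82 (adjusted p = 0.00196), beside 138 genes called. Ovol1 had a change of 0.60 (SE 0.24, adjusted p = 0.472) and Grhl1 of -0.50 (SE 0.22, adjusted p = 0.518). Leaving the same library out gave 0.45 (adjusted p = 0.310) for Ovol1 and -0.33 (adjusted p = 0.442) for Grhl1. For Grhl3 the change was 0.22 (SE 0.43, adjusted p = 0.926), and 0.64 (SE 0.37, adjusted p = 0.415) without that library, so that its wound responses of -1.23 in the total and -1.01 in the cortical fraction were not shown to differ. The other 5 factors had changes of -0.21 (Trp63), -0.19 (Grhl2), 0.18 (Klf4), 1.12 (Gata3, SE 1.52) and 0.03 (Tfap2a), which were -0.12, -0.12, 0.72, 0.54 and 0.04 without it, and none was called in either fit. The adjusted p of Klf4 without it was 0.0541. The contrasts share libraries, each group entering more than 1 of them, and their values are set side by side here without a correlation between them.

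Within the grainyhead-like family, Grhl3 made up a smaller part of the FPKM after wounding. Its share of the summed FPKM of Grhl1, Grhl2 and Grhl3 was 31.2%, 31.2% and 37.3% in the unwounded total and 19.8%, 16.7% and 10.4% in the wounded total libraries. For cortical RNA the share was 32.8%, 35.2% and 36.5% unwounded and 28.9%, 22.7% and 19.9% wounded. Every wounded library lay below every unwounded one of its fraction. The ratio of Grhl3 to Grhl1, which does not depend on library scaling or on the Grhl2 counts, had a mean log2 of -0.40 ± 0.33 in the unwounded and -1.93 ± 0.57 in the wounded total libraries. The same ratio was -0.42 ± 0.16 unwounded and -1.18 ± 0.50 wounded in the cortical fraction. The ratio of Grhl3 to Grhl2 was lower by 1.35 on the log2 scale after wounding in the total fraction (from 0.53 ± 0.08 to -0.82 ± 0.56) and by 0.80 in the cortical fraction (from 0.90 ± 0.11 to 0.10 ± 0.34). Each of these 4 comparisons had no overlap and p = 0.1 in an exact two-sided permutation test, which with 3 against 3 libraries cannot go below 0.1. After Benjamini-Hochberg adjustment over the 6 ratios compared, the exact permutation p was 0.150 for each. The shares and these 4 comparisons reuse the Grhl3 values, whose fall was known when the genes were chosen. They describe that fall again and are not separate support for it.

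The ratio of Klf4 to Klf5 was the third pair. In the total fraction its mean log2 was 0.79 ± 0.29 unwounded and -0.32 ± 1.24 wounded, with overlap (exact permutation p = 0.3, adjusted 0.360). The 3 wounded total libraries had linear ratios of 2.10, 0.605 and 0.406, so that wounded total replicate 1 lay in the unwounded range of 1.49 to 2.18. In the cortical fraction the mean log2 was -0.29 ± 0.06 unwounded and -0.31 ± 0.48 wounded (exact permutation p = 1.00).

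**Figure D3:**
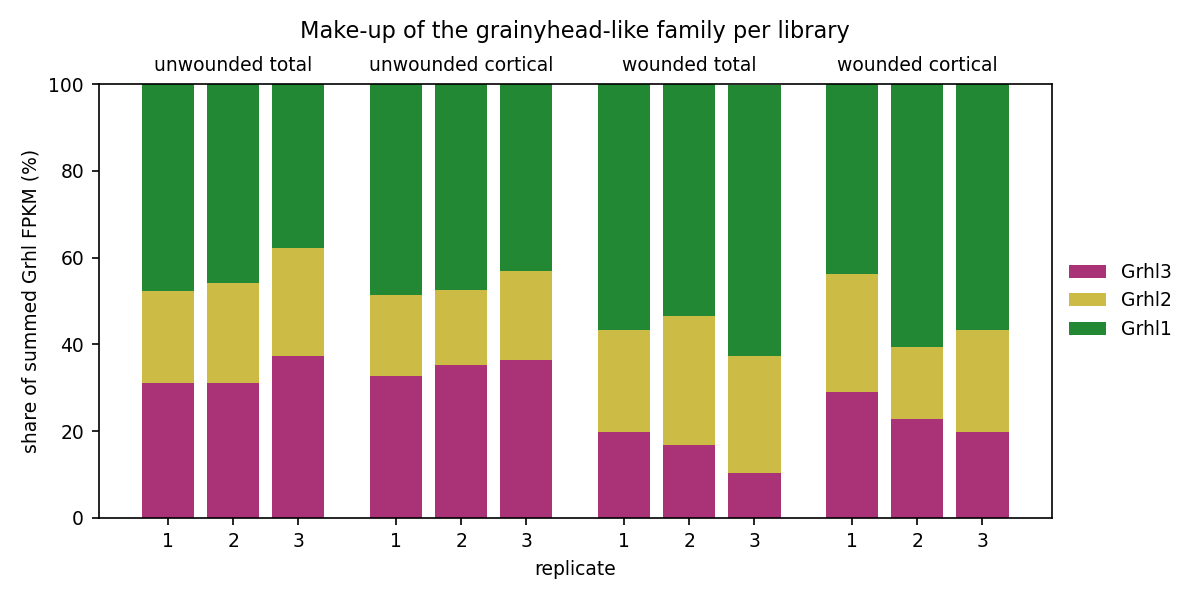
Share of each grainyhead-like gene in the summed FPKM of the 3, in percent, for each of the 12 libraries. The Grhl3 share is 31.2% to 37.3% in the unwounded total and 10.4% to 19.8% in the wounded total libraries.

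Among the 8855 protein-coding genes that averaged 100 counts or more, the 5 whose log2 CPM ran most like that of Grhl3 over the 12 libraries were Fnbp4 (Pearson r = 0.969), Emp1 (0.960), Akap8 (0.948), Itpripl2 (0.948) and Jrkl (0.946). Without wounded total replicate 1 these genes had r = 0.973, 0.965, 0.947, 0.949 and 0.946 and ranked 1, 2, 9, 8 and 10, so that Akap8, Itpripl2 and Jrkl were no longer among the first 5. All 12 libraries share the group differences, so these values only describe the likeness and carry no p. Jrkl stood at 15.1 ± 1.19 CPM in the unwounded total, 22.6 ± 3.09 in the unwounded cortical, 5.21 ± 2.42 in the wounded total and 9.93 ± 1.36 in the wounded cortical group. Among the members the gene most like Grhl3 was Klf4 (r = 0.726), and the r of Klf4 with Klf5 was -0.407.

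Other regulators of the epidermis, from a list of 36 of which 31 were tested, moved in both directions on wounding in the total fraction, 5 higher and 5 lower, beside 15.6% of all genes called. Their median log2 fold change was -0.08, beside -0.03 for all genes. Maf, a factor of late differentiation, rose by 1.34 (SE 0.15, adjusted p = 3.03e-05), Mxd1, an antagonist of Myc, by 0.99 (adjusted p = 3.93e-04) and Vdr, the vitamin D receptor, by 0.94 (adjusted p = 8.77e-06). The inhibitors of DNA binding Id1 (-1.17, adjusted p = 2.07e-05), Id2 (-1.11, adjusted p = 7.43e-04) and Id3 (-0.95, adjusted p = 7.06e-05) fell. In the cortical fraction 2 were higher, Mxd1 (0.90, adjusted p = 0.00421) and Vdr (0.66, adjusted p = 0.00119), and 1 was lower, Id1 (-0.69, adjusted p = 0.00704), with a list median of 0.01 beside 0.02 for all genes, 2.48% of which were called. The counts without wounded total replicate 1 were 4 higher and 7 lower in the total and 4 higher and 5 lower in the cortical fraction. Of all genes, 24.9% and 9.07% were then called in these fractions.

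Paralogs of the members, 31 genes of the same families of which 17 were tested, had 1 member higher and 2 lower on wounding in the total fraction, with a median of -0.19. These 3 of 17 are a share near the 15.6% of all genes called. Trp53, the p53 gene and relative of Trp63, fell by 0.85 (SE 0.12, adjusted p = 2.28e-04), Klf10 fell by 0.76 (SE 0.21, adjusted p = 0.0216), and Klf3 rose by 0.43 (SE 0.12, adjusted p = 0.0202). In the cortical fraction 0 paralogs were called by edgeR's quasi-likelihood test and 0 by DESeq2, with 3 at an unadjusted p under 0.05, all lower, and a median of -0.23. Of all 13571 genes, edgeR called 2.48% there, and 2341 had an unadjusted p under 0.05. With wounded total replicate 1 left out, 1 paralog was higher and 3 were lower in the total fraction, beside 24.9% of all genes called. In the cortical fraction 0 were then called, beside 9.07% of all genes. With all 12 libraries, edgeR called no difference between the fractions in these wound responses for any named regulator (interaction adjusted p from 0.272 to 0.938). Without wounded total replicate 1, the interaction was called for 1 of the other regulators higher and 1 lower, and for 0 paralogs. Of all genes, 2.93% were then called.

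**Figure D4:**
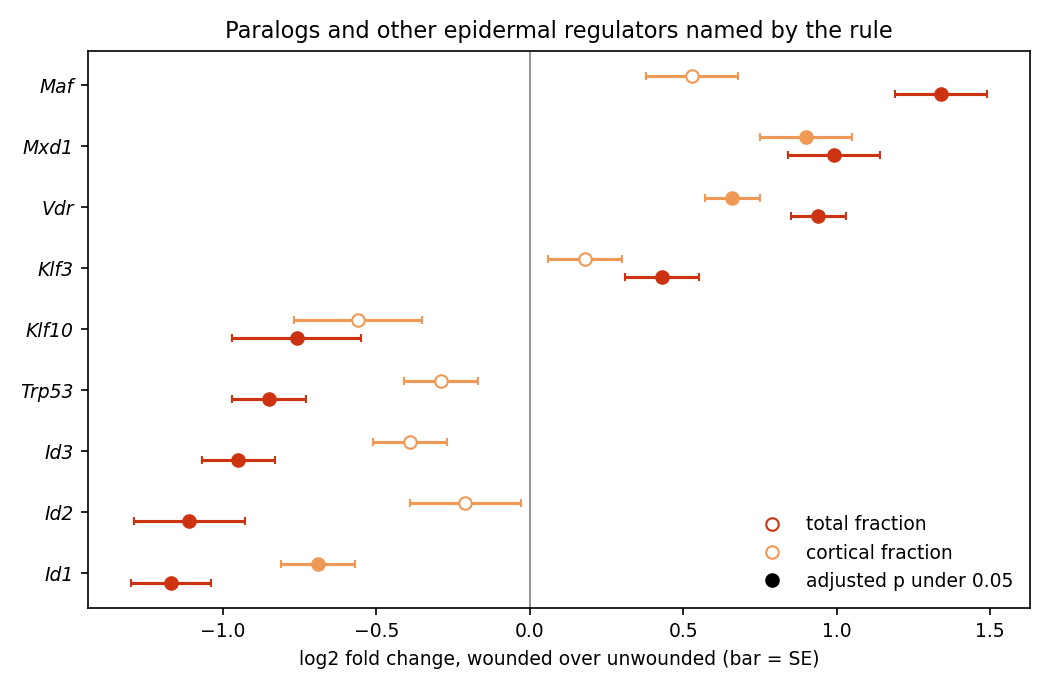
Log2 fold change on wounding, with bars of 1 SE, for the named paralogs and other regulators in the total and the cortical fraction. Maf, Mxd1, Vdr and Klf3 lie above 0 and Id1, Id2, Id3, Trp53 and Klf10 below 0 in both fractions, where filled points were called.

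Genes reported as targets of the factors were read from the same fit. Of 14 reported grainyhead-like targets 12 were tested, and beside the fall of Grhl3 in the total fraction 2 were higher and 0 lower, with a median of 0.28. These 2 of 12 are a share near the 15.6% of all genes called. In that contrast 5 were higher and 0 lower at an unadjusted p under 0.05 in edgeR's quasi-likelihood test. Of the 13571 genes tested, 3972 had such a p. DESeq2 called 5 of these targets higher and 0 lower. The number of all genes DESeq2 called there is not given, so no excess is read from its count. Spint1, an inhibitor of membrane serine proteases, rose by 0.45 (adjusted p = 0.00601) and the tight junction gene Cldn4 by 0.39 (adjusted p = 0.0116). In the cortical fraction Epcam, an epithelial adhesion gene, rose by 0.46 (adjusted p = 0.0248), the only 1 called. The list median there was 0.16, and 2.48% of all genes were called. Of 23 reported p63 targets 22 were tested, and on wounding in the total fraction 7 were higher and 4 lower, with a median of 0.04. The largest changes among them were Dst (1.18), Krt14 (1.04) and Itga3 (0.68) higher and Fras1 (-0.82), Dlx3 (-0.65) and Cdkn1a (-0.36) lower. These encode a hemidesmosome linker, a basal keratin, an integrin, a basement membrane protein, a homeobox factor and a cell cycle inhibitor. Among cortical libraries 3 p63 targets were higher, Dst (0.72), Col17a1 (0.71) and Krt14 (0.65), and 1 was lower, Jag2 (-0.65), with a median of 0.11. Of all genes, 2.48% were called there. When wounded total replicate 1 was left out, 24.9% of all genes were called in the total and 9.07% in the cortical fraction. The p63 targets then had 7 higher and 7 lower in the total and 5 higher and 4 lower in the cortical fraction. Grainyhead-like targets had 2 higher and 0 lower in the total and 3 higher and 1 lower in the cortical fraction. The grainyhead-like and p63 lists come from general knowledge of these factors, and binding was not measured here.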

How the data were processed

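Messenger RNA from the translating part of keratinocyte lysates was measured in 12 libraries. The authors deposited raw fragment counts and FPKM per gene, per the file headers. Read handling with CASAVA, alignment software HISAT2 and build mm10 are named in the submitters' processing notes. The counting tool and annotation release are not given in the sources used here. Libraries were non-directional with poly-T selection, per the labels. Each deposited FPKM followed the count divided by exon length and an effective library size of 0.825 to 1.10 times the column total. No sample column was left unused (0), and 0 pairs of libraries were identical. Groups and replicate numbers came from the sample titles, which call the libraries biological replicates. The labels do not say whether same-numbered libraries share a dish, and p-values measure the spread between these libraries.

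Counts were filtered (filterByExpr), TMM scaled and fitted in 1 model over all 12 libraries with edgeR 4.0.16 (R 4.3.3), using two-sided quasi-likelihood F tests for 5 contrasts and Benjamini-Hochberg adjustment over 13571 genes at 0.05. CPM is the count scaled by TMM-adjusted library size, and log2 CPM for correlations used a prior count of 2. SE is the absolute log2 fold change divided by the square root of F. Ratios of FPKM were compared by exact permutation with scipy 1.17.1 under python 3.11.15, and figures were drawn with matplotlib 3.10.9. The code was tested on simulated data for the wound response in the total fraction with 13191 genes, 200 of them changed. It recovered 92.5% of 2-fold and 100% of 4-fold differences, with 4.46% of calls false. The simulated spread was assumed and no simulated library stood apart, so these rates are not those of the real libraries.

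The members and lists were chosen with earlier results of these data known. All 9 members were named. From each of 6 context lists, called genes of a wound contrast were named, at most 3 per list and direction by size, with a mean of at least 100 counts. The 5 genes most like Grhl3 were also named. Other called genes of the lists were counted and not named.

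Alternatives were RLE and library size scaling, omission of the filter or a minimum mean of 50 counts, DESeq2 1.42.0 without independent filtering, robust dispersion, limma 3.58.1 (limma-trend on FPKM plus 1 or 0.1, and voom with library weights), only the groups compared, a replicate block, removal of a gene length trend fitted by loess with span 0.5, alone or with the block, ratios from counts per length with 1 count added, and each library left out in turn.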

Additional observations from a re-analysis of the deposited data

How the results depend on the processing

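Of 1111 values of the 9 factors in the 5 contrasts under the alternatives (ratios not counted), 1021 kept their direction and side of the threshold, 12 lost and 29 gained a call, and 49 changed sign. With the replicate number as a block, 3, 0, 2, 0 and 0 factors were called in the unwounded and wounded cortical contrasts, the wound responses in the total and cortical fractions and the interaction, the same numbers as without it, and 10 genes in all were called for the interaction. Deviations of same-numbered libraries had correlations of -0.0476 to 0.137 over 11615 genes. The highest, 0.137 and 0.0974, were for replicates 2 and 1 of unwounded against wounded total, with replicate 3 at 0.000626. Different-numbered libraries of those groups had -0.136 to 0.0937. These values do not settle whether the numbers pair libraries, and the main fit did not pair them. With the block, Grhl3 was -1.30 (adjusted p = 0.00942) in the total wound response. The block turned Grhl2 to -0.01 in the wounded cortical contrast.

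The cause of the following changes was not tested. With only the groups compared, fewer libraries set the spread: genes called numbered 3014, 970, 1175 and 1423 in the first 4 contrasts, 1 and 3 factors were called for the total and cortical wound responses, and Grhl3 stood at -1.22 and -1.04 there. With voom weights, genes called were 3708, 4441, 5206, 1316 and 855, factors called were 3 in the wounded cortical contrast, 4 and 1 in the wound responses and 1 in the interaction, and Grhl3 was called in the cortical wound response at -1.0. It turned Gata3 to 0.09 (unwounded cortical) and 0.05 (total wound response), Tfap2a to 0.00 (wounded cortical) and Grhl1 to -0.02 (total wound response). With no filter, 559 and 138 genes were called for the cortical wound response and the interaction, factors called were 1, 4, 1 and 1 from the wounded cortical contrast on, Grhl3 was called at -1.03 in the cortical wound response, and Grhl2 was -0.01 in the total one. DESeq2 called 736 and 72 genes and 1 factor (Grhl3, -1.03) there. Library size scaling called 199 and 11 genes for the cortical wound response and the interaction. It called 3 factors in the wounded cortical contrast, where its number of all genes called is not given. It turned Klf4 (0.10) and Tfap2a (0.13 and 0.18) in the cortical contrasts and Grhl2 (-0.07) in the total wound response. Removing the length trend left 1259 genes in the wounded cortical contrast, 1173 with the block, with Grhl2 at -0.16 and -0.21. FPKM plus 1 or 0.1 gave 10 interaction genes each and Grhl2 at -0.03 and -0.05 in the wounded cortical contrast. The Tfap2a interaction was -0.02 under RLE, DESeq2 and both FPKM fits.

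Leaving out 1 library at a time, genes called ranged over 949 to 3151, 1084 to 3475, 1128 to 3502, 108 to 1276 and 4 to 413 in the 5 contrasts, and factors called over 1 to 3, 0 to 3, 1 to 4, 0 to 1 and 0 to 1. Grhl3 ranged over -1.65 to -0.93 (total wound response), -1.28 to -0.88 (cortical) and -0.10 to 0.64 (interaction). Signs changed in some leave-outs for Klf4 (-0.16 to 0.01) and Tfap2a (-0.13 to 0.04) in the unwounded cortical contrast. They also changed for Grhl2 (-0.22 to 0.28), Klf4 (-0.19 to 0.62), Klf5 (-0.04 to 0.34), Gata3 (-0.17 to 1.20) and Tfap2a (-0.06 to 0.01) in the wounded cortical contrast and Grhl2 (-0.07 to 0.12) in the total wound response. The same held for Grhl2 (-0.44 to 0.05) and Gata3 (-0.58 to 0.79) in the cortical wound response, for Grhl2 (-0.44 to 0.05), Klf4 (-0.12 to 0.72) and Tfap2a (-0.06 to 0.10) in the interaction, and for the cortical Klf4 to Klf5 ratio (-0.28 to 0.19). The ratio of Grhl3 to Grhl2 ranged over -1.63 to -1.07 (total) and -0.97 to -0.63 (cortical), and that of Grhl3 to Grhl1 over -1.73 to -1.20 and -1.05 to -0.59. Depth limits Gata3 most, with 0 to 35 counts per library.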

Other observations

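Some differentiation products rose on wounding in the total fraction. Of 18 listed, 14 were tested, with 4 higher and 0 lower, beside 15.6% of all genes called. At an unadjusted p under 0.05 in edgeR, 6 were higher and 0 lower, beside 3972 of the 13571 genes tested. DESeq2 called 5 higher and 0 lower, and as its number of all genes called there is not given, no excess is read from this. The median log2 fold change was 0.42, beside -0.03 for all genes. Elovl4, which makes very long chain fatty acids of barrier lipids, rose by 1.02 (adjusted p = 0.0415), Ivl, the gene of the envelope protein involucrin, by 0.72 (adjusted p = 0.0465) and Sbsn by 0.49 (adjusted p = 0.0117). Without wounded total replicate 1, Ivl was 0.38 (adjusted p = 0.200) and 5 products were higher, beside 24.9% of all genes called. In the cortical fraction edgeR's quasi-likelihood test and DESeq2 called 0 products in either direction, with 1 higher at an unadjusted p under 0.05, and the median was 0.18. Of all genes, edgeR called 2.48% and DESeq2 736 there, and 2341 of the 13571 tested had an unadjusted p under 0.05. When wounded total replicate 1, a library of neither cortical group, was left out, 1 product was called higher in the cortical fraction. Of all genes, 9.07% were then called. Of 9 genes of the mesenchymal transition, 5 were tested, and Twist1, a transcription factor of that transition, rose by 0.45 (adjusted p = 0.00784) in the total fraction, where edgeR called 1 gene of the list. DESeq2 called 1 higher and 1 lower there, again without its number for all genes. At an unadjusted p under 0.05, 1 was lower, beside 3972 of the 13571 genes tested in either direction. The median of this list was -0.08, and in the cortical fraction 0 were called by edgeR, 0 by DESeq2 and 0 had an unadjusted p under 0.05, with a median of 0.09.

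Between the fractions, more reported p63 targets were called higher than lower in the cortical one. In unwounded cells 10 of 22 tested were higher, 2 lower and 10 not called (median 0.29, beside 0.00 for all genes, 14.2% of them called). In wounded cells 9 were higher, 1 lower and 12 not called (median 0.24, beside 0.04, with 15.7% called). Of all genes, 898 were called higher and 1030 lower in unwounded cells, and 1034 higher and 1090 lower in wounded cells. The lists were not read with the gene length trend removed. Jag2, a Notch ligand, had log2 differences of 1.39 and 1.07, and was chosen for mention after its values were seen. Grainyhead-like targets had 4 higher and 1 lower of 12 in unwounded cells (median 0.44) and 2 higher and 0 lower in wounded cells (median 0.19). In wounded cells 3 were higher and 1 lower at an unadjusted p under 0.05, and 2 higher and 1 lower by DESeq2. Of the 13571 genes tested, 3944 had such a p between the fractions of wounded cells and 3616 between those of unwounded cells. The numbers of all genes DESeq2 called between the fractions are not given. No excess is therefore read from its counts between the fractions, for this list or those below. The other regulators had 4 higher and 1 lower of 31 in unwounded cells (median 0.07) and 5 higher and 0 lower in wounded cells (median 0.06). For wounded cells 5 were higher and 1 lower at an unadjusted p under 0.05, and 4 higher and 0 lower by DESeq2. Paralogs had 1 higher and 0 lower of 17 (median 0.08) and 1 of each (median 0.19), differentiation products 0 of each (median 0.10) and 1 of each (median -0.17), and mesenchymal genes 1 higher (median 0.30) and 0 called by edgeR (median -0.02). Of the differentiation products in unwounded cells, 1 was higher and 2 were lower at an unadjusted p under 0.05, and DESeq2 called 1 lower. Of the mesenchymal genes in wounded cells, 1 was higher at an unadjusted p under 0.05 and DESeq2 called 1 higher. For wounded cells without wounded total replicate 1, the counts were 1 higher and 5 lower for differentiation products and 3 higher and 1 lower for grainyhead-like targets. Of all genes, 24.7% were then called. In the interaction edgeR's quasi-likelihood test and DESeq2 called 0 genes of every list, with medians from -0.20 to 0.13 and 0 to 7 genes per list at an unadjusted p under 0.05. Of all 13571 genes, edgeR called 0.125% there, and 1228 had an unadjusted p under 0.05. With wounded total replicate 1 left out, edgeR called 1 higher and 1 lower of the other regulators, 1 higher and 2 lower of the p63 targets, 1 lower of the differentiation products and 0 of the other lists in the interaction. Of all genes, 2.93% were called in that fit. The p63 list shares 4 genes with the other regulators, and the differentiation list shares 2 with the grainyhead-like targets.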
